A study of Mus musculus with 17 samples.

Results

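The calcium/calmodulin-dependent protein kinase genes were followed in mouse frontal cortex: the CaMKII genes Camk2a, Camk2b, Camk2d and Camk2g, the CaMKI genes Camk1, Camk1d and Camk1g, Camk4, and the genes Camkk1 and Camkk2 of the kinases that activate CaMKI and CaMKIV. They are 10 of the 46073 genes in each deposited file, taken by name as members of one kinase family. The transgenic system is of the Tet-off kind: a CamK driver, the promoter of Camk2a itself, gives a transactivator protein to excitatory cells of the forebrain, and that protein turns on a miR-211 transgene unless doxycycline is present. All were male FVB/N mice, and no age is given in the labels. Ct are 6 libraries from mice with the CamK driver alone, dTg are 7 libraries from dTg-211 mice, which carry both transgenes, and dTgDox are 3 libraries from dTg-211 mice given doxycycline for 4 days. All 3 groups therefore carry the driver, and no Ct mice were treated with doxycycline, so doxycycline itself and the shut-off of miR-211 cannot be told apart. The file of a further label, NTg (PTRE-miR-211 without CamK, 1 library), held the same values as dTg replicate 1 for all 46073 genes, so it was not used as a group.

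CaMKII is a holoenzyme of many subunits that is very abundant at excitatory synapses, where calcium entering through NMDA receptors activates it and its autophosphorylation keeps it active in synaptic plasticity. The alpha and beta subunits predominate in forebrain neurons, and the delta and gamma subunits are expressed more widely. CaMKI and CaMKIV act in a cascade: CaMKK1 or CaMKK2 phosphorylates them once calmodulin is bound, and CaMKIV then phosphorylates transcription factors such as CREB in the nucleus.

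The values were read as FPKM, a level per gene length scaled to library size, and are given as deposited. No further scaling between libraries was applied in the fit reported here. Without dTg replicate 1 the libraries summed to 628549 to 695518 FPKM and held 15762 to 16085 genes at 1 FPKM or more. Their relative depth was estimated at 0.79 to 1.1 times that of Ct 1. This estimate came from ratios of low values in single-exon genes and not from read counts. The number of reads behind each value is not given, so no counting intervals were computed. Cortical neuron markers were present in all 15 of these libraries. In dTg 1 the cortical transcription factor Tbr1 was at 0.037 FPKM and the 6 cerebellar markers summed to 2157 FPKM, against at most 23.0 in the other libraries, so dTg 1 is described apart and dTg below means replicates 2 to 7. In the 3 dTgDox libraries the hippocampal CA markers summed to 174.5 to 210.9 FPKM, against at most 22.4 in Ct and 25.7 in dTg, and 5 of the 5 tested were called higher in both comparisons. The dentate granule cell markers summed to 46.4 to 65.4 FPKM, against at most 6.76 in Ct and 8.22 in dTg, with 5 of 6 called higher against dTg and 6 of 6 against Ct. The oligodendrocyte markers summed to 2627 to 3950 FPKM (Ct 1033 to 2258, dTg 933 to 2553, 0 of 6 called), and the choroid plexus markers to 23.5 to 1967 FPKM, the highest in dTgDox 3 (Ct at most 91.2, dTg at most 125). Of the 4 choroid plexus markers tested, 1 was called higher in both comparisons. This was Kl, at 3.78, 4.30 and 16.8 FPKM in dTgDox and at most 1.73 in the untreated libraries. The microglia markers summed to 157 to 215 FPKM (Ct 124 to 170, dTg 155 to 170), with 1 of 6 called higher in each comparison. The 6 astrocyte markers summed to 707 to 933 FPKM (Ct 530.2 to 627, dTg 546 to 750.1), with 3 called higher and 1 lower in both comparisons; among them Gfap was at 276, 127 and 204 FPKM in dTgDox and at most 49.0 in the untreated libraries. The 8 excitatory cortical markers summed to 551 to 590 FPKM, within Ct (540 to 806), and in dTg to 552 to 756, with 1 called higher and 3 lower in both comparisons. Within that list Tbr1 was at 19.5 ± 4.84 FPKM in dTgDox (SD, n = 3) and 44.8 ± 8.17 in Ct (n = 6), while Neurod6 was at 92.2 ± 5.32 and 43.6 ± 10.2. The GABA interneuron markers summed to 420 to 581 FPKM in dTgDox, below all of Ct (586 to 766) and overlapping dTg (535 to 670). Of these 7, 1 was called lower and 0 higher in both comparisons. The striatal neuron markers summed to 49.0 to 87.5 FPKM (Ct 65.0 to 549, dTg 57.5 to 283, 0 of 7 called). The olfactory bulb markers summed to 3.22 to 4.66 FPKM (Ct 3.88 to 196, dTg 3.14 to 106, 0 of 5 called). All samples are labelled frontal cortex, and from these files a difference in the tissue taken cannot be told apart from the treatment. These marker differences accompany every dTgDox result on the kinase genes below, and their part in those results was not tested. In bulk RNA, fewer cells of a type and less RNA per cell cannot be told apart.

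Camk2a, the alpha subunit gene, was the most abundant of the 10 in the driver-only cortex. Its level in Ct was 758 ± 115 FPKM (SD, n = 6), with a lowest library of 602, a median of 746 and a highest of 917. Camk2b, whose subunit also binds actin filaments, followed at 214 ± 12.0 FPKM, and the 2 genes did not overlap across libraries. Next was Camkk2 at 92.3 ± 15.4 FPKM, below every library of Camk2b. Camk2g (71.8 ± 12.3 FPKM) overlapped Camkk2 and was above every library of the next gene, Camk1 (45.8 ± 7.30 FPKM). Camk1, Camk2d (41.5 ± 8.84 FPKM) and Camkk1 (40.5 ± 7.26 FPKM) overlapped each other. Camk1d (26.6 ± 2.64 FPKM) overlapped Camk4 (24.1 ± 5.98 FPKM), and Camk4 overlapped Camk1g (16.1 ± 4.46 FPKM), the lowest of the 10.

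**Figure D1:**
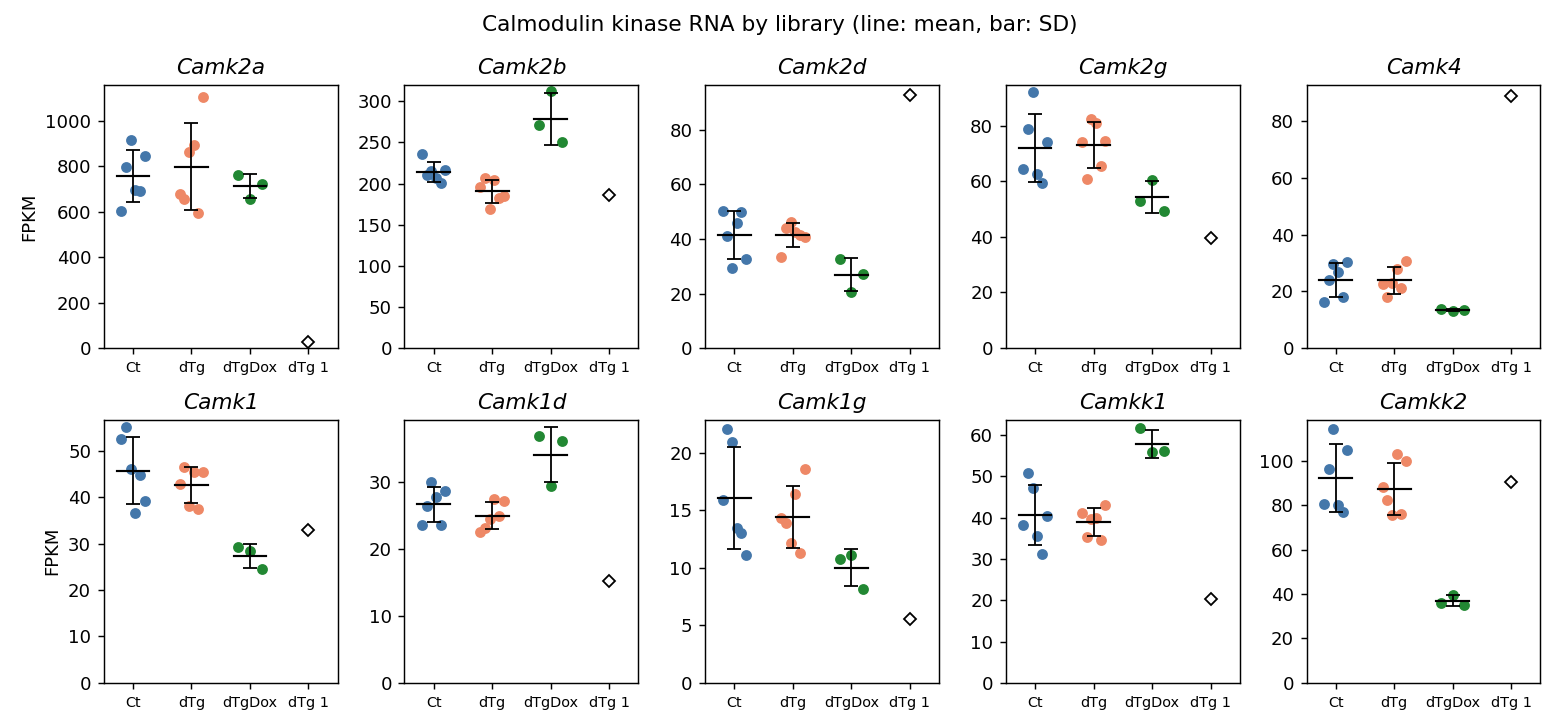
FPKM of each of the 10 calmodulin kinase genes, 1 panel per gene and 1 point per library, for Ct (6), dTg replicates 2 to 7 (6), dTgDox (3) and dTg 1, which is drawn apart; horizontal lines are group means and error bars the SD. In dTgDox, Camkk2 sat at 35.0 to 39.7 FPKM and below every Ct and dTg library, while Camk2a stayed within the range of the untreated libraries.

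The driver-only and miR-211-expressing groups were compared to ask which of these genes differ when the miR-211 transgene is on. None of the 10 passed the threshold (adjusted p under 0.05, limma, Benjamini-Hochberg over 19064 genes), beside 0% of all genes called, and every member's adjusted p was 1.0. In all, 607 of the 19064 genes had an unadjusted p under 0.05 (limma), Camk2b among them. That is a smaller share than the 0.05 that would be reached if no gene differed. No member had groups that did not overlap, against 0.131% of all genes tested. Camk2a in dTg had a lowest library of 594 FPKM, a median of 771 and a highest of 1104, and its log2 difference from Ct was 0.06 (95% interval -0.24 to 0.36). For Camk2b the dTg libraries ran from 169 to 207 FPKM with a median of 190, and the Ct libraries from 200.3 to 236 with a median of 213. That log2 difference was -0.17 (95% interval -0.31 to -0.04, unadjusted p = 0.0157, limma), the largest in size of the 10. The median log2 difference was -0.06 over the 10 genes and -0.0045 over all genes tested. For Camkk2 the medians were 88.6 FPKM in Ct and 85.4 in dTg, and for Camkk1 39.2 and 39.8.

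The miR-211 transgene makes a microRNA that pairs with 3′ UTRs through bases 2 to 8, its seed, shown here in capitals so that it can be read against the matching sites in the kinase transcripts. Mature sequences are from RefSeq (GRCm38.p6), and miR-204-5p is shown because it has the same seed.
mmu-miR-211-5p (chr7:64205831-64205852, + strand): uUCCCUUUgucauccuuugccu
mmu-miR-204-5p (chr19:22750610-22750631): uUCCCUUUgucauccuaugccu

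Matches to the seed were searched on the transcript strand in each gene's longest 3′ UTR (GENCODE M21, GRCm38), as AAAGGGAA (8mer), AAAGGGA (7mer-m8) and AAGGGAA (7mer-A1), where an 8mer contains both 7mers and was counted once. Of the 10 members, 5 held at least 1 match (Camkk1, Camk2a, Camk1, Camk1d and Camk2d) and 1, Camk1, held the 8mer. Among 14324 tested genes with a 3′ UTR, 24.8% held a match of any of the 3 kinds and 7.09% an 8mer. The median 3′ UTR of those genes was 1182.5 bases, while the members ran from 190 to 5526 bases and most were longer than that median. These shares were not adjusted for length. The match in Camk1 lies in a 3′ UTR of 190 bases, while Camk1d (5526 bases) and Camk2d (3591 bases) have longer ones. Camkk2 held no match in 3502 bases. Sites are printed 5′ to 3′ on the transcript strand, with the searched motif in capitals: its last A in the 8mer and the 7mer-A1 lies opposite base 1, outside the seed. The match in Camk2a, a 7mer-m8, is not printed.
Camk1 (chr6:113334127-113334156, − strand): cttcttgtaatAAAGGGAAgataaaacaag
Camkk1 (chr11:73041378-73041406, + strand): gattggtccccAAAGGGAgatgagcagga
Camk1d (chr2:5294490-5294518, − strand): ttttctaagccAAAGGGAcgaactattgc
Camk1d (chr2:5293652-5293680, − strand): aaaagtaaaagAAGGGAAactgtgcattt
Camk2d (chr3:126846099-126846127, + strand): atgagagccacAAAGGGAggtagccatgg

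Beside these matches stand the levels with the transgene on. Camk1 was at 42.7 ± 3.94 FPKM in dTg and 45.8 ± 7.30 in Ct (n = 6 each), a log2 difference of -0.09 with overlapping libraries. Camk2d, with 1 match, had medians of 42.1 FPKM in dTg and 43.4 in Ct. A match is a description of the letters and was not tested as a site.

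The dTgDox group was set against both untreated groups to ask which genes differ after doxycycline. Against dTg, 8 of the 10 kinase genes passed the threshold, 3 higher (Camk2b, Camk1d and Camkk1) and 5 lower (Camk2d, Camk2g, Camk4, Camk1 and Camkk2). Of all genes tested, 18.9% were called in this comparison, 9.65% higher and 9.22% lower. The dTgDox libraries did not overlap the dTg libraries for 9 of the 10, 3 above and 6 below, against 22.2% of all genes tested. Against Ct, 9 of the 10 passed, the same 3 higher and 6 lower with Camk1g added, where 19.7% of all genes were called (9.86% higher, 9.85% lower). Of these 9, 6 did not overlap Ct (2 above and 4 below), against 23.4% of all genes. The median log2 difference of the 10 was -0.46 against dTg and -0.50 against Ct, and over all genes -0.0054 and -0.0079. The 2 comparisons share the dTgDox libraries, so the 8 members called in both are not independent counts. Without dTgDox 3, 6 members passed against dTg and 5 against Ct, and with dTg 1 put back into dTg 5 and 3 passed. Camk2b, Camk1 and Camkk2 were in every one of these counts.

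**Figure D2:**
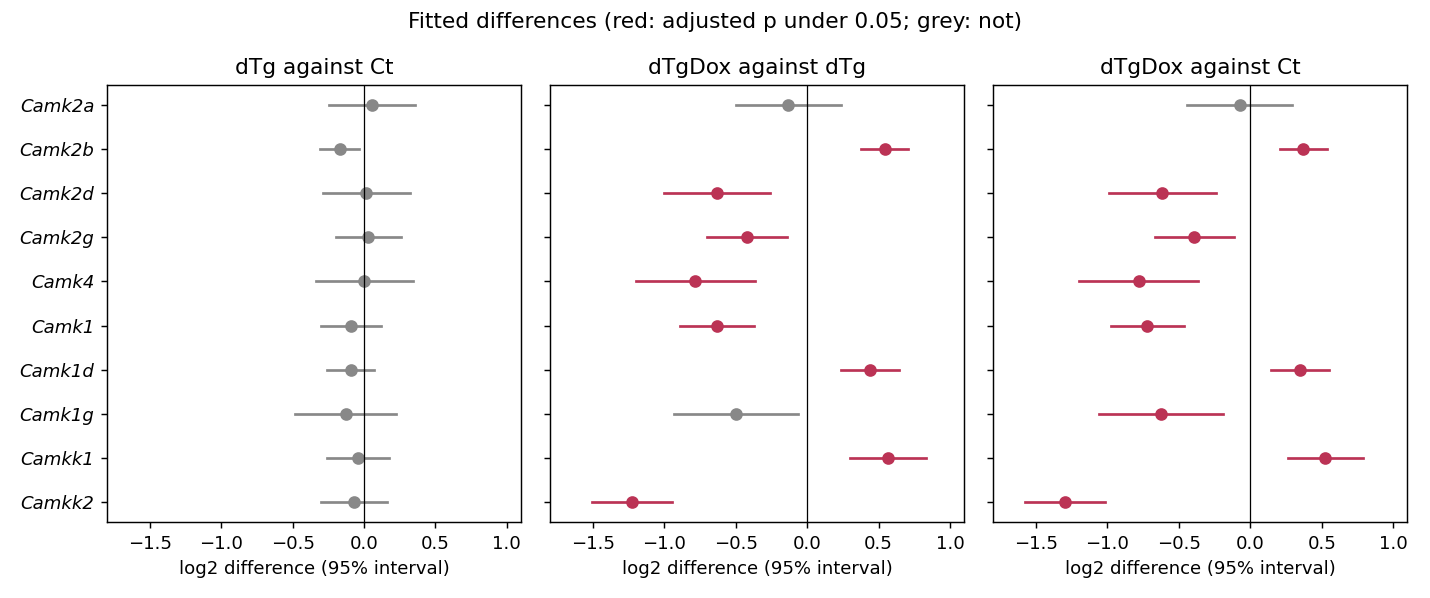
Log2 difference in log2(FPKM + 0.5) for each of the 10 genes in the 3 comparisons, as points with 95% intervals from limma; red points have an adjusted p under 0.05 and grey points do not. No point is red for dTg against Ct, and Camkk2 is the farthest below 0 in both dTgDox comparisons (-1.23 and -1.30).

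Among the CaMKII genes, the beta subunit gene rose in dTgDox and the delta and gamma subunit genes fell, while Camk2a did not pass the test. Camk2a (ENSMUSG00000024617, chromosome 18, 60925618 to 60988152, GRCm38) was at 760, 658 and 723 FPKM in the 3 dTgDox libraries. These lie within the span of both untreated groups. Its log2 difference was -0.13 against dTg (SE 0.17, 95% interval -0.50 to 0.24, adjusted p = 0.66, limma) and -0.07 against Ct (95% interval -0.44 to 0.29, adjusted p = 0.81).

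Camk2b (ENSMUSG00000057897, chromosome 11, 5969644 to 6066362) was at 271, 313 and 251 FPKM in dTgDox. Every one of these was above the highest Ct library (236) and the highest dTg library (207). This was a log2 difference of 0.54 against dTg (SE 0.077, adjusted p = 0.00022, limma) and 0.37 against Ct (SE 0.077, adjusted p = 0.0036).

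Camk2d (ENSMUSG00000053819, chromosome 3, 126596302 to 126846326) was at 32.7, 20.6 and 27.3 FPKM in dTgDox, against 33.3 to 46.1 (median 42.1) in dTg and 29.4 to 50.1 (median 43.4) in Ct. Replicate 2 was the lowest of all, and replicate 1 lay just under the lowest dTg library and inside the Ct range. Its log2 difference came to -0.63 against dTg (SE 0.17, adjusted p = 0.021, limma) and -0.61 against Ct (adjusted p = 0.023). The calls were lost without dTgDox 2 (adjusted p = 0.12 and 0.13) and without dTgDox 3 (0.058 and 0.063).

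Camk2g (ENSMUSG00000021820, chromosome 14, 20734875 to 20794088) was at 52.9, 60.5 and 49.4 FPKM in dTgDox, with 60.9 to 82.3 (median 74.2) in dTg and 59.4 to 92.0 (median 69.2) in Ct. The dTgDox libraries lay below all of dTg by a narrow margin and 1 of them lay inside Ct. On the log2 scale the difference was -0.42 against dTg (SE 0.13, adjusted p = 0.035, limma) and -0.39 against Ct (adjusted p = 0.047). The first call was lost without any 1 of dTg 2, 4, 5 or 7 or of dTgDox 1 or 3 (adjusted p = 0.054 to 0.15). The second was lost without any 1 of Ct 2, 3 or 6, of dTg 2, 6 or 7, or of dTgDox 1 or 3 (adjusted p = 0.052 to 0.19).

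The make-up of CaMKII RNA is given as a description, without a test. Camk2a gave 69.5% ± 3.53 of the summed FPKM of the 4 genes in Ct (SD, n = 6), 71.7% ± 4.46 in dTg (n = 6) and 66.5% ± 3.43 in dTgDox (n = 3). Camk2b gave 19.9% ± 2.62, 17.7% ± 3.42 and 26.0% ± 3.28. The sum itself was 1085 ± 116 FPKM in Ct, 1103 ± 195 in dTg and 1073 ± 37.3 in dTgDox, so the group totals differed by less than the spread between libraries. The Camk2b share was above all of dTg in the 3 dTgDox libraries (23.9% to 29.7%), but Ct 1 (24.7%) lay above 2 of them. The ratio of Camk2a to Camk2b was 2.56 to 4.25 in Ct, 3.17 to 5.97 in dTg and 2.10 to 2.88 in dTgDox, so dTgDox lay below all of dTg and overlapped Ct.

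Camk4 and 2 of the 3 CaMKI genes were lower in dTgDox than in Ct, and Camk1d was higher. Camk4, the nuclear kinase (ENSMUSG00000038128, chromosome 18, 32934931 to 33191228), was at 13.9, 13.0 and 13.6 FPKM in dTgDox. The Ct libraries spanned 16.1 to 30.2 FPKM (median 25.4) and the dTg libraries 18.1 to 30.9 (median 22.7). All 3 dTgDox libraries lay below all 12 untreated ones, and they differed among themselves by less than 1 FPKM (SD 0.45). The log2 difference was -0.78 against each group (SE 0.20, adjusted p = 0.012 in both, limma).

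Camk1 (ENSMUSG00000030272, chromosome 6, 113334124 to 113343984), a cytosolic kinase of growing neurites, was at 29.3, 28.4 and 24.5 FPKM in dTgDox. Its untreated ranges were 36.5 to 55.2 FPKM in Ct (median 45.5) and 37.5 to 46.6 in dTg (median 44.2), so the dTgDox libraries lay below both. In the fit this was a log2 difference of -0.63 against dTg (SE 0.12, adjusted p = 0.0021, limma) and -0.72 against Ct (adjusted p = 0.00076). Camk1 shares 232 of its 5975 exon bases with Ogg1 on the opposite strand, which was at 3.02 to 5.04 FPKM, and whether strand was used in counting is not given in the sources used here. Camk4 likewise shares 72 of 3259 exon bases with the antisense gene 2310026I22Rik, listed at 0 to 0.36 FPKM.

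Camk1d (ENSMUSG00000039145, chromosome 2, 5293457 to 5714515), the delta form of CaMKI, went the other way at 36.7, 29.4 and 36.0 FPKM in dTgDox. Ct spanned 23.5 to 30.0 FPKM (median 27.0) and dTg 22.6 to 27.4 (median 24.6), so replicates 1 and 3 lay above both groups and replicate 2 lay inside Ct. The fitted log2 difference was 0.44 against dTg (SE 0.095, adjusted p = 0.0048, limma) and 0.35 against Ct (adjusted p = 0.019). The call against Ct was lost without dTgDox 1 (adjusted p = 0.11) or dTgDox 3 (0.093).

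Camk1g (ENSMUSG00000016179, chromosome 1, 193346346 to 193370298), whose kinase is lipid-anchored to membranes, was at 10.8, 11.1 and 8.17 FPKM in dTgDox. Ct spanned 11.1 to 22.0 FPKM (median 14.7) and dTg 11.3 to 18.6 (median 14.1), and the dTgDox libraries lay just below both ranges. The log2 difference was -0.50 against dTg (SE 0.20, 95% interval -0.93 to -0.07, adjusted p = 0.10, limma), which did not pass, and -0.63 against Ct (adjusted p = 0.042), which did. The call against Ct was lost without any 1 of Ct 1, 2 or 3, of dTg 2 or 3, or of the 3 dTgDox libraries (adjusted p = 0.051 to 0.19).

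The activating kinases moved in opposite directions in dTgDox. Camkk2 (ENSMUSG00000029471, chromosome 5, 122731170 to 122779409), whose product also phosphorylates the energy sensor AMPK, was at 36.2, 39.7 and 35.0 FPKM. The lowest, median and highest Ct libraries were 77.2, 88.6 and 114.6 FPKM, and those of dTg 75.5, 85.4 and 103.1. Every dTgDox library was therefore well below every untreated one. Camkk2 had a log2 difference of -1.23 against dTg (SE 0.13, adjusted p = 1.8e-05, limma) and -1.30 against Ct (SE 0.13, adjusted p = 1.0e-05), the largest of the 10 genes in both, with a fold of 0.428 and 0.407.

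Camkk1 (ENSMUSG00000020785, chromosome 11, 73019008 to 73042073) was at 61.6, 55.8 and 56.0 FPKM in dTgDox. Ct spanned 31.3 to 50.7 FPKM (median 39.2) and dTg 34.5 to 43.1 (median 39.8), so the dTgDox libraries lay above both. For Camkk1 the log2 difference was 0.57 against dTg (SE 0.12, adjusted p = 0.0051, limma) and 0.52 against Ct (SE 0.12, adjusted p = 0.0082). The ratio of Camkk2 to Camkk1 was 1.90 to 2.60 in Ct, 1.90 to 2.58 in dTg and 0.59 to 0.71 in dTgDox, so Camkk2 was the more abundant of the pair in each of the 12 untreated libraries and the less abundant in the 3 dTgDox libraries. This ratio is given without a test.

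**Figure D3:**
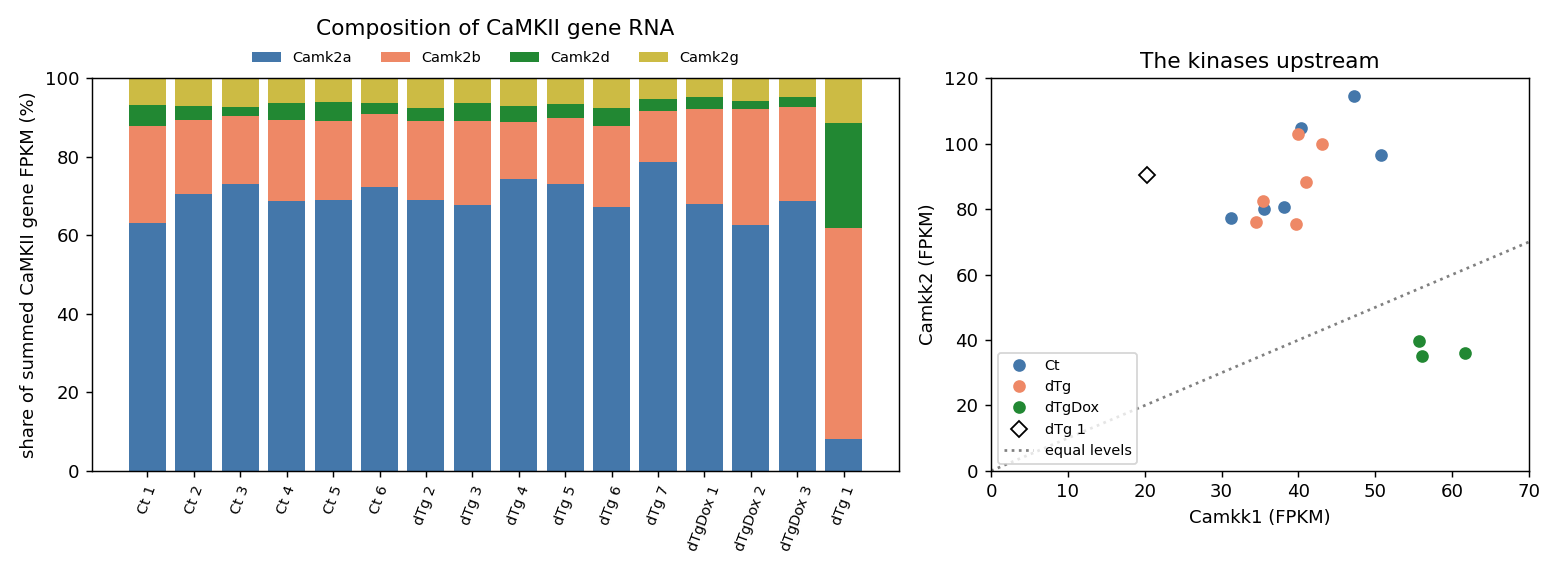
Left, share (%) of Camk2a, Camk2b, Camk2d and Camk2g in their summed FPKM, 1 bar per library; right, Camkk2 against Camkk1 (FPKM), 1 point per library, with a dotted line of equal levels. The 3 dTgDox libraries lie below the line of equal levels and all other libraries above it, and dTg 1 has the smallest Camk2a share (8.15%).

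Ct 3, Ct 6, dTg 5 and dTg 7 were the highest of the 12 untreated libraries for both Camk4 (27.9 to 30.9 FPKM, against 16.1 to 26.8 in the other 8) and Camkk2 (99.8 to 114.6 against 75.5 to 96.5). They come from both genotypes, and the pattern was seen in the data and not tested. Camk2d ran the other way in Ct, being highest in Ct 1 (50.1 FPKM) and Ct 5 (50.0) and lowest in Ct 3 (29.4) and Ct 6 (32.6). The summed olfactory bulb markers were at 196 FPKM in Ct 1 and 99.2 in Ct 5. In the other Ct libraries Camk2d was at 41.1 FPKM at a marker sum of 54.6 (Ct 2) and 45.7 at 7.51 (Ct 4). It was at 32.6 at 7.48 (Ct 6) and 29.4 at 3.88 (Ct 3). In dTg 3 it was at 44.0 at 106, and in dTg 6 at 41.5 at 20.6. The remaining dTg libraries did not follow that order. Camk2d was at 46.1 at 3.14 (dTg 4), 42.6 at 5.58 (dTg 5), 40.5 at 4.33 (dTg 7) and 33.3 at 5.70 (dTg 2). Its highest dTg value thus stood at the lowest dTg marker sum. The part of the olfactory bulb markers in the Camk2d level was not tested.

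The genes around the kinases were read from 5 lists, and in dTg against Ct none of their members passed the threshold. In dTgDox against dTg, kinases related to the family gave 1 higher and 6 lower of 14 tested (list median -0.09), where 18.9% of all genes were called. Camkv, a kinase-dead relative found at dendritic spines, was at 232, 230.3 and 227 FPKM in dTgDox and 172.7 ± 13.3 in dTg, a log2 difference of 0.41 (adjusted p = 0.00034, limma). Cask, a synaptic scaffold with a CaMK domain, was at 18.9, 15.8 and 18.3 FPKM in dTgDox and 29.8 ± 3.98 in dTg, a log2 difference of -0.73 (adjusted p = 0.00042). Dclk1, a doublecortin-like kinase, and Dapk2, a death-associated kinase, also fell (log2 difference -0.57 and -0.999, adjusted p = 0.0021 and 0.0029). Dapk2 is a low gene, at 0.518, 0.786 and 0.622 FPKM in dTgDox and 1.07 to 2.48 in dTg, near the filter of 0.5 FPKM. Eef2k, counted among the lower genes, was called in 12 of 26 alternatives, with an adjusted p of up to 0.23. Against Ct the same list gave 2 higher and 5 lower, where 19.7% of all genes were called. Of the 2 higher, Phkg1 (log2 difference 0.36, adjusted p = 0.047) was called in 8 of 26 alternatives, with an adjusted p of 0.25 without dTgDox 1 and 0.22 without dTgDox 3.

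Of the 8 genes for calmodulin and the small proteins that buffer it, 1 was higher and 1 lower in dTgDox in each comparison (list median -0.14 against dTg and -0.17 against Ct), a share near the 18.9% and 19.7% of all genes called, and Nrgn (neurogranin) was not among them. Pcp4, which speeds calcium exchange on calmodulin, was at 166, 140.3 and 111 FPKM in dTgDox and 295 ± 75.5 in dTg, and fell by 1.06 on the log2 scale (adjusted p = 0.0019, limma). Among the untreated libraries it was at 220 to 246 FPKM in Ct 3 and dTg 4, 5 and 7, and at 325 to 385 in the rest. In Ct 3 and dTg 4, 5 and 7 the striatal and olfactory bulb markers summed to at most 77.0 and 5.58 FPKM. They summed to 88.6 and 5.70 or more in the rest, and to at most 87.5 and 4.66 in dTgDox. This pattern was seen in the data, and the part of these markers in the Pcp4 level was not tested. Calml4, the higher gene, was at 1.77, 0.949 and 8.79 FPKM in dTgDox. The highest value came from dTgDox 3, the library with the most choroid plexus marker RNA (1967 FPKM). Without dTgDox 3 the Calml4 call was lost (adjusted p = 0.20 against dTg and 0.099 against Ct), and against dTg it was also lost without any 1 of dTg 3, 5 or 7 or without dTgDox 1 (0.052 to 0.065).

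Of 14 CaMKII inhibitors and opposing phosphatases, 1 was lower and 0 higher in dTgDox than in dTg (list median 0.09), and 2 were lower than in Ct (list median 0.05), where 18.9% and 19.7% of all genes were called. Camk2n1, which encodes a protein inhibitor of CaMKII, was at 195, 242 and 173 FPKM in dTgDox. Its dTg libraries ran from 332 to 598 FPKM (median 446) and its Ct libraries from 275 to 634 (median 385), so dTgDox lay below both. The log2 difference was -1.14 against dTg (SE 0.24, adjusted p = 0.0054, limma) and -0.98 against Ct (adjusted p = 0.012). The call against Ct was lost without dTgDox 1 (0.052) or dTgDox 3 (0.066). Ppp3cc, a calcineurin subunit gene, was the other gene lower than in Ct (log2 difference -0.44, adjusted p = 0.046), and that call held in only 8 of 26 alternatives, with an adjusted p of up to 0.15.

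The 16 synaptic partners and substrates of CaMKII gave 3 higher and 2 lower against dTg and 2 higher and 2 lower against Ct (list median -0.10 in both), where 18.9% and 19.7% of all genes were called. Gria1, the AMPA receptor subunit that CaMKII phosphorylates, was at 149, 149.7 and 156 FPKM in dTgDox, against 55.7 to 80.4 in dTg and 63.0 to 90.8 in Ct. All 3 libraries lay above both groups, and the log2 difference was 1.12 against dTg (SE 0.12, adjusted p = 1.9e-05, limma) and 1.05 against Ct (adjusted p = 3.2e-05). Stx1a, a syntaxin of the vesicle fusion machinery, was at 63.7, 60.9 and 48.0 FPKM in dTgDox and at 116 or more in every untreated library, and fell by 1.41 on the log2 scale against dTg (adjusted p = 7.1e-05). Grin2a, an NMDA receptor subunit gene, rose by 0.62 (adjusted p = 0.011), and that call was lost without dTgDox 1 (0.055) or dTgDox 3 (0.052). Syn1, encoding the vesicle protein synapsin I, fell by 0.47 on the log2 scale (adjusted p = 0.015), and that call was lost without dTgDox 3 (0.072). Kcnd2, a potassium channel gene and the other gene called higher against dTg (log2 difference 0.24, adjusted p = 0.049), was called in 8 of 26 alternatives, with an adjusted p of up to 0.98.

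Among 17 nuclear and metabolic targets of the CaMKK, CaMKI and CaMKIV kinases, 2 were higher and 2 lower against dTg and 1 was higher and 2 lower against Ct (list median -0.09 and -0.17), where 18.9% and 19.7% of all genes were called. Mef2c, a neuronal transcription factor, was at 46.7, 43.2 and 34.4 FPKM in dTgDox, while the lowest of the untreated libraries was at 152. Its log2 difference was -2.15 against dTg (SE 0.17, adjusted p = 1.1e-06, limma) and -2.14 against Ct (adjusted p = 1.1e-06). Mef2d fell by 0.32 on the log2 scale against dTg (adjusted p = 0.0027). Prkaa1, an AMPK catalytic subunit gene, rose by 0.34 (adjusted p = 0.0053) from 7.72 ± 0.41 FPKM in dTg to 9.89 ± 0.16 in dTgDox. Mef2a was the other gene called higher against dTg (log2 difference 0.22, adjusted p = 0.049), which held in 7 of 26 alternatives, with an adjusted p of up to 0.23. With dTg 1 put back into dTg, the calls against dTg were lost for Mef2c (adjusted p = 0.21), Stx1a (0.86), Camk2n1 (0.47), Syn1 (0.74), Dclk1 (0.27), Camkv (0.50), Prkaa1 (0.13) and Grin2a (0.062), and held for Gria1, Cask, Pcp4, Mef2d and Dapk2.

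**Figure D4:**
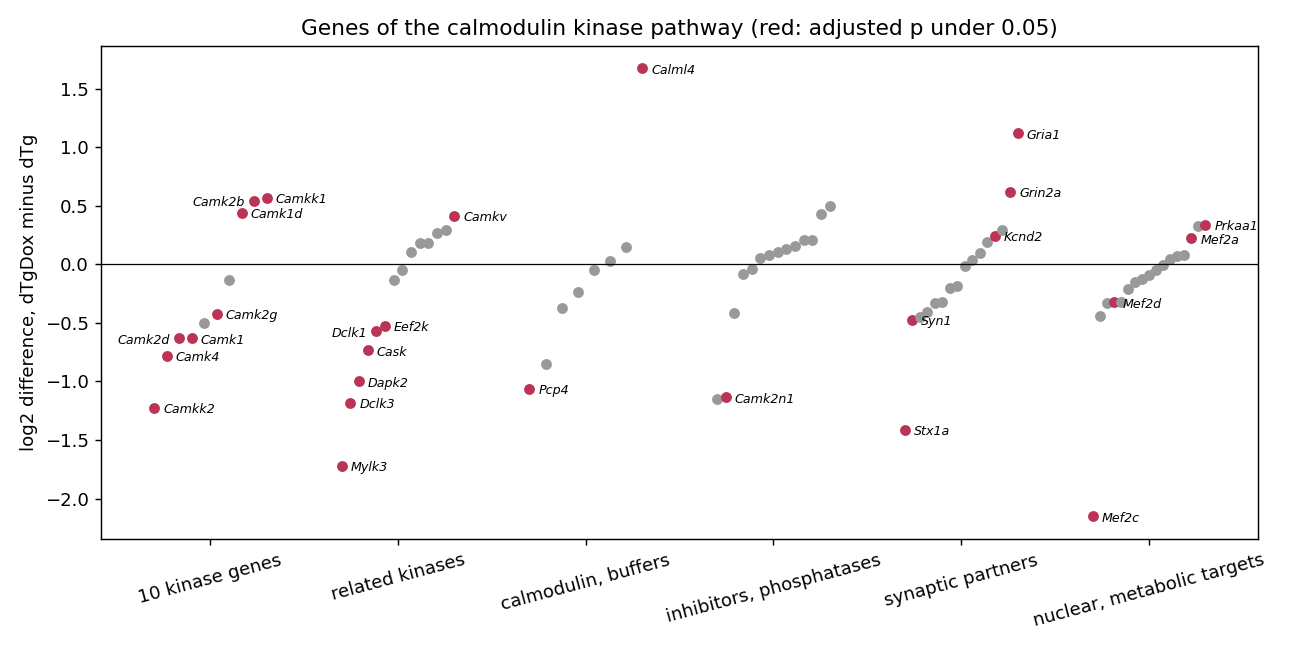
Log2 difference, dTgDox minus dTg, of log2(FPKM + 0.5) for the 10 kinase genes and 5 lists of pathway genes, 1 point per gene, sorted within each list; red points have an adjusted p under 0.05 (limma). Mef2c (-2.15) lies lowest, and red points stand on both sides of 0 in every list but that of inhibitors and phosphatases.

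Likeness of pattern was measured over the 15 libraries as the root mean square (RMS) difference between gene-centred log2(FPKM + 0.5) levels, among 9396 other genes whose mean log2 level was 3 or more. The genes nearest to Camk2a were Rims1 (RMS difference 0.14), Zfp697 (0.14) and Kif1a (0.14), set against an SD of 0.25 for Camk2a itself. Nearest to Camkk2 were Gm1976 (0.092) and Ppme1 (0.12). Camk4 was nearest to Pcsk2 (0.13), Scn1a (0.15) and D430041D05Rik, and Camk1 to Fscn1 (0.10), Brinp2 and Otud1. For Camk2b they were Ip6k2, Cct5 and Dhx33, for Camk2d Rab3b, Rmnd1 and C130071C03Rik, and for Camk2g Brsk2 and Kalrn were among them. For Camk1d they were Atp2b3, Capza2 and Ncoa1, for Camk1g Fbxw7, Synpo and Efhd2, and for Camkk1 Clns1a and Pcdh1. The points share 15 libraries of unequal group size. Group means were not removed, so the dTgDox differences, and the marker differences that accompany them, are part of these likenesses.

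The library labelled dTg 1, with cerebellar markers at 2157 FPKM in sum, had another order of the kinase genes. Camk2a was at 28.3 FPKM, where the lowest other library had 594. Camk2b was the highest of the 10 at 186 FPKM and gave 53.7% of CaMKII RNA, with 26.7% from Camk2d, 11.4% from Camk2g and 8.15% from Camk2a. Camk2d (92.8 FPKM) and Camk4 (88.9 FPKM) were above every other library. Camk1g (5.55 FPKM), Camkk1 (20.3 FPKM), Camk1d (15.1 FPKM) and Camk2g (39.6 FPKM) were, like Camk2a, below every other one. Camkk2 was at 90.6 FPKM, within the untreated range. This is 1 library, so none of these values has a replicate check.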

How the data were processed

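Per the labels, polyadenylated RNA of 17 samples was made into single-end libraries and sequenced. The authors deposited 1 value per Ensembl gene. The unit FPKM was read from the deposited values. The submitters' processing notes name TopHat2 and DESeq; for their versions, the build, the annotation, the counting program and the handling of reads that match several genes, nothing is stated in what was used here. GENCODE M21 (GRCm38) gave symbols to 45139 of 46073 identifiers.

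Levels were fitted with limma 3.58.1 (R 4.3.3) on log2(FPKM + 0.5) over 15 libraries, 1 mean per group, with trended robust empirical Bayes, two-sided, for genes at 0.5 FPKM or more in at least 3 libraries, Benjamini-Hochberg adjusted over all genes. Log2 differences are on that scale and understate changes of low genes. The fit was tested on simulated data. The identical dTg 1 and NTg files were counted once, and dTg 1 was left out as its markers are cerebellar. Nothing says whether libraries came from separate mice, so p-values measure the spread between these samples. The labels name 2 flow cells without assigning libraries, and dTg 5 to 7 share a number in their file headers whose meaning is not stated. Members, lists and tests were chosen with earlier results of these data known. Named were all 10 members, up to 4 pathway genes per list and comparison with the smallest p past the threshold, and the 3 genes most alike to each member, of which some are not reported here; genes listed only for completeness or as calls lost were added after their values were seen. Alternatives were other pseudocounts (0.1 and 1), filters, scalings, libraries and a replicate block.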

Additional observations from a re-analysis of the deposited data

Results flagged for a closer look

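The library labelled dTg 1 was left out of the fit reported here and entered only as an alternative. In it, 2 of the 10 genes stood above every Ct library. Camk2d was at 92.8 FPKM, where the highest Ct library had 50.1 FPKM. Camk4 was at 88.9 FPKM, where the highest Ct library had 30.2 FPKM. The cerebellar markers in dTg 1 are given beside its values in the report, and their part in these levels was not tested. No library of Ct or dTg stood far from the rest of its group for any of the 10 genes (0 of 20 groups of 6 libraries).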

How the results depend on the processing

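For dTg against Ct, 0 genes were called, and 1 with a pseudocount of 0.1, 0 to 1 without single libraries (1 without dTg 3 or without dTg 6), and 2 with dTg 5 to 7 averaged as 1, a setting added after seeing the data; 0 of the 10 kinase genes passed in any of them. With dTg 1 included, the genes called fell from 3596 to 1537 (dTgDox against dTg) and from 3758 to 1504 (against Ct), and the kinase genes called from 8 to 5 and from 9 to 3. Camkk1 (adjusted p = 0.12), Camk4 (0.24), Camk1d (0.19), Camk2d (0.18), Camk2g (0.26) and Camk1g (0.22) were then lost against Ct, and Camk4 (0.095), Camk2d (0.069) and Camk2g (0.38) against dTg. Camk2a, not called, then differed by -0.62 (dTg against Ct). Without single libraries, 2077 to 3715 and 2229 to 3872 genes and 6 to 8 and 5 to 9 kinase genes were called. The lowest gene counts came without dTgDox 1 (2077 and 2229; without dTgDox 3, 2155 and 2273), and the lowest kinase counts without dTgDox 3.

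Same-numbered libraries did not deviate together (r = -0.19 to 0.08 over 10 pairs; 1 of 14 libraries correlated best with its own number). A replicate block gave 1562 and 2394 genes and 4 and 4 kinase genes. Camkk2 and Camk1 passed in all 26 alternatives of both dTgDox comparisons (Camkk2 from -1.28 to -1.18 against dTg and -1.35 to -1.23 against Ct). Camk2b passed in all 26 against dTg and in 25 against Ct, where its adjusted p reached 0.056 (limma). Camk4 and Camkk1 each passed in 24 against Ct. No called difference of the 10 genes changed sign. Depth in reads is not known, and only 3 dTgDox libraries limit the precision.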
